A study of Mus musculus with 14 samples.

Results

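Cells obtain cholesterol by making it through the mevalonate pathway and by taking up lipoproteins. When membrane sterol is low, the SREBP transcription factors leave the endoplasmic reticulum with their escort SCAP and switch on the synthesis enzymes, and the INSIG proteins hold them back when sterol is sufficient. When sterol is in excess, oxysterols activate the LXR receptors, which switch on the efflux pumps ABCA1 and ABCG1 and the ubiquitin ligase MYLIP, which sends the lipoprotein receptor for degradation. Microglia, the resident macrophages of the brain, handle large amounts of sterol and fatty acid when they take up myelin and cell debris. The genes described here encode the enzymes of cholesterol and fatty acid synthesis, the SREBP machinery and the LXR side. They were named in a list of 33 genes, and 30 of them had an array row carrying exactly 1 gene symbol, out of 19938 genes measured. Where a gene had several such rows, the row with the highest mean was taken. Acat2, Soat1 and Nr1h2 had no such row and were not analysed here.

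The cells were sorted microglia of the cortex on the operated side. The mice were C57BL/6J males, 12 to 14 weeks old, and the RNA of the cells was hybridised to Affymetrix Mouse Gene 1.0 ST arrays, which hold probes along the transcripts of each gene. Wild-type mice had undergone a 15 min filament occlusion of the middle cerebral artery and 72 h of reperfusion, abbreviated I/R, under isoflurane (n = 4, lettered A to D) or sham surgery (n = 4, lettered A to D). TLR4-/- mice, which lack the receptor for bacterial lipopolysaccharide and for molecules set free from damaged tissue, had undergone I/R (n = 3, lettered B, C and D) or sham surgery (n = 3, lettered A, B and D). The titles of all 7 I/R samples carry the letters IPC, which the labels do not explain, and the treatment label, ischemia/reperfusion, was followed. How the TLR4-/- allele was made, which markers were used for the sort and whether each array held 1 animal is not given in these sources. The p-values therefore reflect the spread from array to array, and some of it may be technical.

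All values below are log2 signals, so a difference of 1 is a 2-fold difference in signal, and a gene was called at a limma adjusted p under 0.05 over all 19938 genes. Array medians lay between 4.93 and 5.12. The 95th percentile of 1027 olfactory receptor genes, 4.67, served as a stand-in for background, and 28 of the 30 genes had every group mean above it. The exceptions were Scd1 and Idi1, whose lowest group means were 3.54 and 4.20. All 9 measured microglial markers, among them Cx3cr1, P2ry12, Tmem119 and Sall1, were above background in every group. Wild-type sham array C was closer to the TLR4-/- sham arrays (r between 0.987 and 0.992 across all genes) than to its own group (0.981 to 0.986). TLR4-/- I/R array D was closer to the wild-type I/R arrays (0.990 to 0.992) than to its own group (0.985 to 0.990). These were the arrays whose ranges with another group lay wholly above those with their own. TLR4-/- I/R arrays B and C also reached slightly higher correlations with wild-type I/R than within their group, with overlapping ranges (for B, 0.986 to 0.988 against 0.985 to 0.986). The same held for A and D of TLR4-/- sham with wild-type sham, and for A and D of wild-type sham with TLR4-/- sham. In RNA from a sorted population, fewer cells of a kind and less RNA per cell cannot be told apart.

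The promoters of the pathway are shown first. The 2 arms are gene lists named for the factors SREBP and LXR, and matches in these promoters did not define them. The sequences are the 250 bases upstream of the RefSeq transcription start (build GRCm38.p6), on the strand of the gene. Hmgcs1 makes the entry metabolite of the pathway (chr13:119690101-119690350, plus strand), Cyp51 removes a methyl group from lanosterol (chr5:4104698-4104947, minus strand), and Lss closes the sterol rings (chr10:76531355-76531604, plus strand). Srebf2 encodes the SREBP that acts chiefly on cholesterol genes (chr15:82147019-82147268, plus strand). Mylip (chr13:45389492-45389741, plus strand) and the efflux pump gene Abca1 (chr4:53159896-53160145, minus strand) stand for the LXR side. Capitals mark the letters TCACCNCA, which the classical sterol regulatory element contains, and CCAAT, the box of the SREBP partner NF-Y, each on either strand.
Hmgcs1: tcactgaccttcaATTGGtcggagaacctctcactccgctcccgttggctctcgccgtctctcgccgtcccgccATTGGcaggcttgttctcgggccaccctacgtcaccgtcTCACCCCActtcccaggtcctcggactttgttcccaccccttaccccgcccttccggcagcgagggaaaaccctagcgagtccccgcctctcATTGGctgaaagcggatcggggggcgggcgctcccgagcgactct
Cyp51: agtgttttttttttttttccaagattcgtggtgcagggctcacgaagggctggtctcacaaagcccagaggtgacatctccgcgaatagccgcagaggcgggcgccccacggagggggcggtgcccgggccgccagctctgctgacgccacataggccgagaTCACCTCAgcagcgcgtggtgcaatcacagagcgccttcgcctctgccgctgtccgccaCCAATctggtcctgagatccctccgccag
Lss: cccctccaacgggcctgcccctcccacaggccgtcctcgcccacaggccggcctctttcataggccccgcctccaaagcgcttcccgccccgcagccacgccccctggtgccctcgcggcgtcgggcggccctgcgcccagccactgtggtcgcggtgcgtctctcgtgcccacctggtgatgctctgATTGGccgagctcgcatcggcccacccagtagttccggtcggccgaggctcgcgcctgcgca
Srebf2: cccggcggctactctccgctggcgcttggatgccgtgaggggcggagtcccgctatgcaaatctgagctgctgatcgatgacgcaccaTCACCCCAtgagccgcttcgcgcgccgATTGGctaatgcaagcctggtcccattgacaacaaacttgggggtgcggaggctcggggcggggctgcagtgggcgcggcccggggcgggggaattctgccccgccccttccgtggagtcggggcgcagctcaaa
Mylip: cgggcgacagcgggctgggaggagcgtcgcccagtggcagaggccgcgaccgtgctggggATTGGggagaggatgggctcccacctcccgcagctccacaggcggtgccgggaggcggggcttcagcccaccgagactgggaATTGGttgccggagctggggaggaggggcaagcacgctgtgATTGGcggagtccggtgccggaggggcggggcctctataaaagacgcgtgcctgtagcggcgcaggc
Abca1: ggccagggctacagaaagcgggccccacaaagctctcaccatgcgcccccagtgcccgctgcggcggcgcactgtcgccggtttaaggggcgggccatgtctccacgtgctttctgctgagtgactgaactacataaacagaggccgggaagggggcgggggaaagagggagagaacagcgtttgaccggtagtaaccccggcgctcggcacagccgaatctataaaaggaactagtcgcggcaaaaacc

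Of the 30 measured genes, 23 had such a promoter in the table. TCACCNCA was present in 4 of these 23 genes (17.4%), Hmgcs1, Cyp51, Hsd17b7 and Srebf2, against 4.18% of all 27025 genes with a window. CCAAT was present in 20 of 23 (87.0%), against 37.5% of all genes, with Mylip and Lpcat3 of the LXR side among the 20. CACGTG, an E-box that SREBPs can also bind, was present in 6 of 23 (26.1%, against 6.86%), Abca1 and Insig1 among them. The ideal form of DR4, the direct repeat that LXR binds, was in 0 of 23 and in 0.0148% of all genes. So rare a form cannot tell whether these promoters hold an LXR site. Looser forms of DR4 were not searched and are not marked in the sequences. These are matches of letters in a short window, and the form TCACCNCA was chosen after the promoters had been read. The promoters of Fdps, Fdft1, Sqle, Abcg1, Stard4, Scd1 and Scd2 are not shown.

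The first comparison asked how I/R changed the genes in wild-type microglia. Some of the synthesis genes rose by modest amounts, Lss and Mylip fell, and the efflux pump genes were not called. Of the 30 genes 4 rose, Sqle, Pmvk, Cyp51 and Stard4, and 2 fell, Mylip and Lss. These are 13.3% higher and 6.67% lower. Over all genes 9.78% were called, 6.15% higher and 3.63% lower. In wild type the shares among the 30 genes were above these, but they rested on 4 and 2 genes. In TLR4-/- 3.33% of the 30 genes were called, against 8.17% of all genes. Among the 21 measured genes of SREBP-driven synthesis (the mevalonate arm, the sterol arm, the fatty acid enzymes, Insig1 and Stard4) 4 rose and 1 fell, and 16 had a change above 0. Their median change was 0.25, beside a median of -0.06 over all genes. The parts differed. The mevalonate arm had a median of 0.35, with 6 of 6 changes above 0. The sterol arm had a median of 0.01, with 6 of 10 above 0, and the fatty acid enzymes one of 0.26, with 2 of 3 above 0. In the 5 genes of the LXR side 0 rose and 1 fell, with a median of -0.05.

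**Figure D1:**
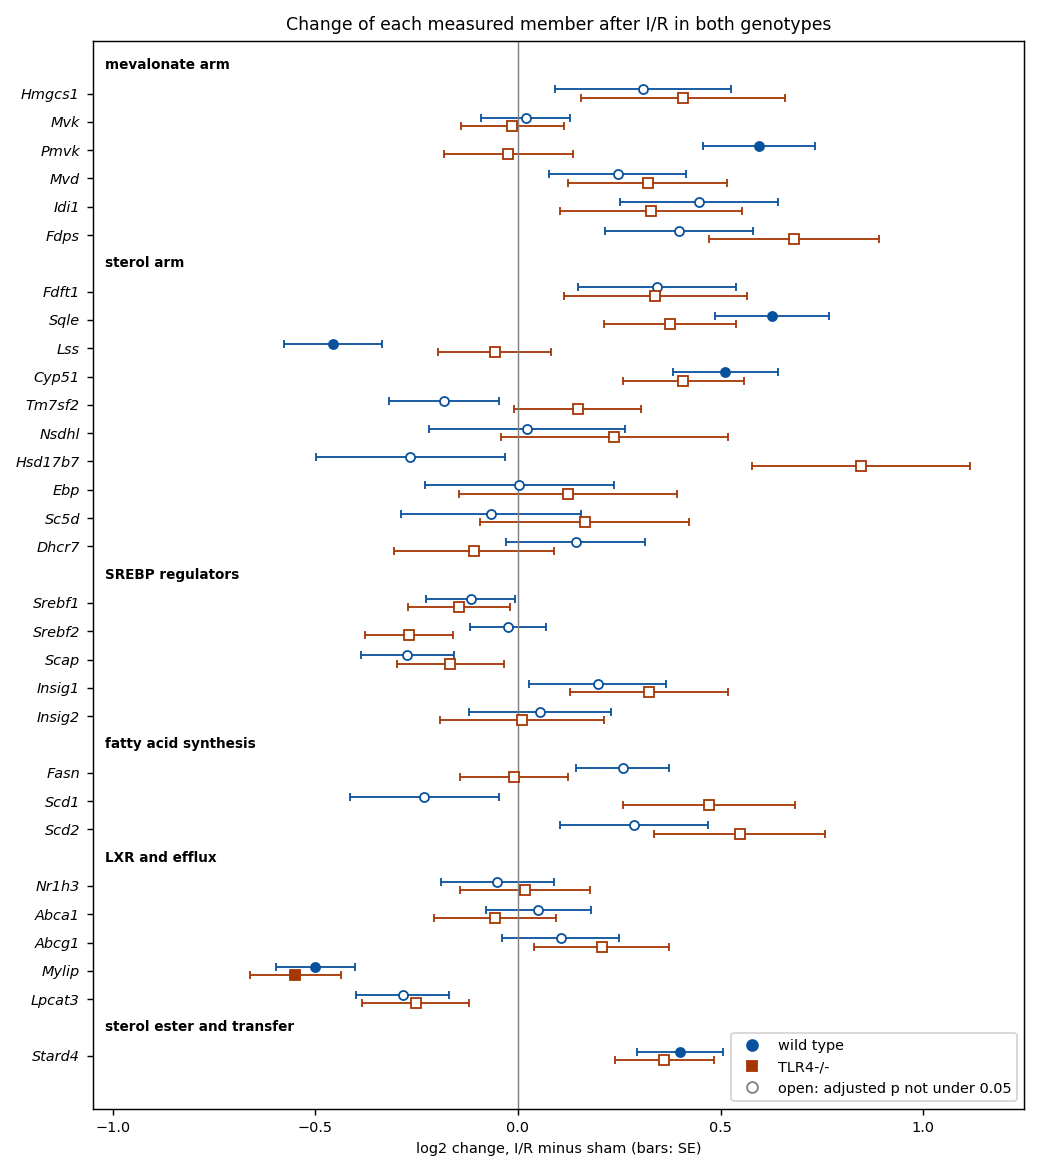
The log2 change from sham to I/R (x axis) of each of the 30 measured genes (rows, ordered by role) in wild type (circles) and TLR4-/- (squares), with bars for the SE and filled symbols for genes called at a limma adjusted p under 0.05. Mylip is the member with both symbols filled, at -0.50 and -0.55, and most synthesis genes lie to the right of 0.

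In the mevalonate arm, which builds isoprenoid units, Pmvk phosphorylates phosphomevalonate. Its wild-type values were 5.15, 5.25, 5.28 and 5.37 after sham surgery (arrays A to D) and 5.74, 6.01, 6.05 and 5.62 after I/R. Every I/R array was above every sham array. The rise was 0.60 (SE 0.14, 1.51-fold, limma adjusted p = 0.00961). In TLR4-/- the values were 5.63, 5.23 and 5.33 after sham (A, B and D) and 5.52, 5.04 and 5.56 after I/R (B, C and D), which overlapped. The change there was -0.02 (SE 0.16), and the difference between the genotypes' changes, 0.62 (SE 0.21), did not pass (limma adjusted p = 1.00).

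Fdps makes farnesyl pyrophosphate, from which both sterols and protein prenyl groups derive. Wild-type values were 6.45, 6.60, 5.96 and 6.31 after sham and 7.08, 6.43, 6.45 and 6.96 after I/R, with overlap between the groups. In TLR4-/- they were 5.87, 5.79 and 6.19 after sham and 6.71, 6.28 and 6.90 after I/R, where every I/R array was higher. The change was 0.40 (SE 0.18, limma adjusted p = 0.203) in wild type and 0.68 (SE 0.21, limma adjusted p = 0.0573) in TLR4-/-. Averaged over both genotypes it was 0.54 (SE 0.14) and was called (limma adjusted p = 0.0115). That call ended when wild-type sham array C and TLR4-/- I/R array D were both left out (change 0.41, adjusted p = 0.0590). The change of Fdps in TLR4-/- was called in 4 of 14 alternatives (limma adjusted p from 0.00661 to 0.201), and that in wild type in 0 of 16.

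The other 4 measured genes of the arm were not called in any comparison. Hmgcs1, the HMG-CoA synthase, had changes of 0.31 (SE 0.22) in wild type and 0.41 (SE 0.25) in TLR4-/-, which became 0.13 without wild-type sham array D and 0.16 without TLR4-/- sham array A. Mvd, which forms isopentenyl pyrophosphate, had changes of 0.25 and 0.32, and Idi1, which isomerises it, of 0.45 and 0.33, partly within background. For Mvk, the mevalonate kinase, the changes were 0.02 in wild type and -0.01 in TLR4-/-. Idi1 also had a second row, with changes of 0.49 in wild type and 0.09 in TLR4-/-.

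In the sterol arm, Sqle encodes squalene epoxidase, a rate-limiting oxygen-dependent step. Its wild-type values were 5.35, 4.75, 5.08 and 5.14 after sham and 5.81, 5.50, 5.75 and 5.78 after I/R. In TLR4-/- they were 4.82, 4.97 and 5.14 after sham and 5.15, 5.66 and 5.26 after I/R. The I/R arrays were above the sham arrays without overlap in both genotypes, narrowly so in TLR4-/-. The rise was 0.63 in wild type (SE 0.14, 1.54-fold, limma adjusted p = 0.00815), while the change of 0.37 in TLR4-/- (SE 0.16) missed the threshold (limma adjusted p = 0.202) and was 0.22 without I/R array C.

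Cyp51, whose promoter holds 1 TCACCNCA match and 1 CCAAT box, encodes lanosterol demethylase. Its wild-type values were 5.95, 6.05, 5.82 and 6.15 after sham and 6.24, 6.63, 6.56 and 6.59 after I/R, so that all I/R arrays were higher. In TLR4-/- they were 5.72, 5.55 and 6.04 after sham and 6.19, 6.00 and 6.34 after I/R, where I/R array C lay below sham array D. The rise was 0.51 in wild type (SE 0.13, 1.43-fold, limma adjusted p = 0.0179), and the change in TLR4-/- was 0.41 (SE 0.15, limma adjusted p = 0.118). Leaving out B, C or D of the I/R arrays, or C of the sham arrays, ended the wild-type call (adjusted p between 0.0508 and 0.0597).

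Lss, the lanosterol synthase that acts between Sqle and Cyp51, went the other way. Its wild-type values were 5.58, 5.99, 5.78 and 5.79 after sham and 5.40, 5.28, 5.45 and 5.20 after I/R, with all I/R arrays lower. In TLR4-/- they were 5.59, 5.51 and 5.98 after sham and 5.72, 5.64 and 5.54 after I/R, which overlapped. Lss fell by 0.46 in wild type (SE 0.12, limma adjusted p = 0.0229), and its change in TLR4-/- was -0.06 (SE 0.14). The difference of the changes, -0.40 (SE 0.18), did not pass (limma adjusted p = 1.00). Leaving out B or D of the I/R arrays, or B of the sham arrays, ended the call (adjusted p between 0.0535 and 0.0810).

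The other 7 genes of the sterol arm were not called. Fdft1, the squalene synthase, had a change of 0.34 in both genotypes. In wild type this depended on sham array B, at 6.97 against 7.62 to 8.00 on the other sham arrays, without which the change was 0.13. In TLR4-/- it was 0.22 without sham array D. The second row of Fdft1 had changes of 0.50 and 0.38. The last enzymes of the pathway, Ebp, Sc5d and Dhcr7, had changes between -0.07 and 0.14 in wild type and between -0.11 and 0.16 in TLR4-/-. Nsdhl had changes of 0.02 and 0.24, and Tm7sf2, a sterol reductase, of -0.18 and 0.15. Hsd17b7, which encodes a ketoreductase of sterol demethylation, had values of 6.20, 6.34, 5.51 and 5.72 after sham and 5.23, 5.19, 6.11 and 6.17 after I/R in wild type. In TLR4-/- it had 5.25, 5.45 and 5.19 after sham and 6.16, 6.44 and 5.83 after I/R. The wild-type groups overlapped and the TLR4-/- I/R arrays were all higher, with a change of 0.85 (SE 0.27, limma adjusted p = 0.0644). Its difference of changes, -1.11 (SE 0.36), was the farthest from 0 among the members and did not pass (limma adjusted p = 1.00).

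**Figure D2:**
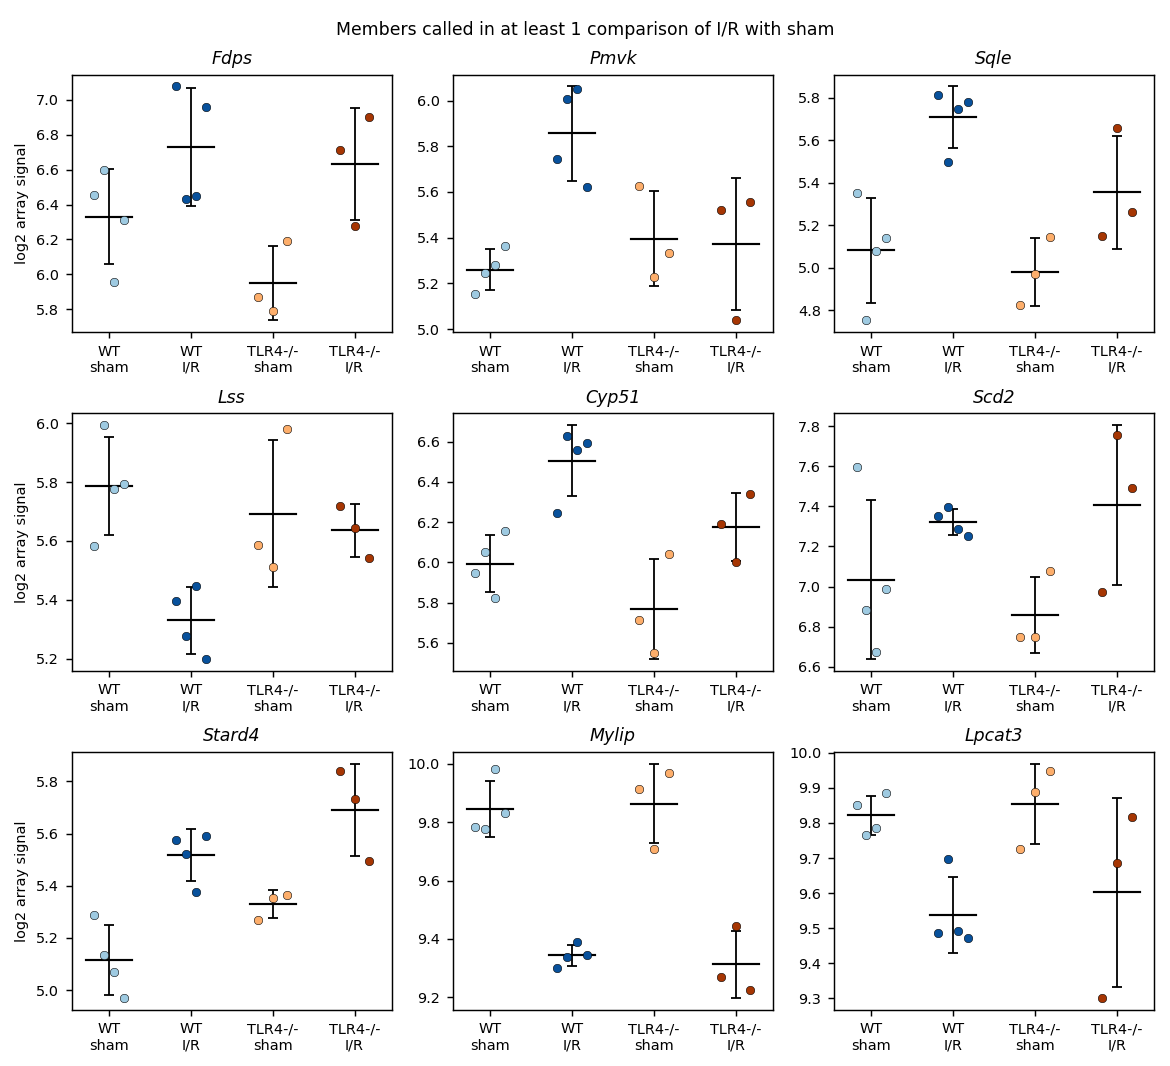
Log2 array signal (y axis, with a separate range in each panel) of the 9 members called in at least 1 comparison of I/R with sham, by group. Points are arrays, lines are group means and bars the SD. The I/R arrays of Mylip lie below the sham arrays in both genotypes, and those of Sqle and Stard4 above them.

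Among the fatty acid enzymes, Fasn, the fatty acid synthase, and the desaturases Scd1 and Scd2, 0 of 3 were called in either genotype alone. An unadjusted p under 0.05 was found for 8 of the 21 synthesis genes in wild type, where 22.6% of all genes had one, and for 7 in TLR4-/-, where 20.3% had one. Scd2, the main brain desaturase, had wild-type values of 7.60, 6.88, 6.67 and 6.99 after sham and 7.35, 7.40, 7.29 and 7.25 after I/R. In TLR4-/- the values were 6.75, 6.75 and 7.08 after sham and 6.97, 7.76 and 7.49 after I/R, and sham and I/R overlapped in both genotypes. The mean change over both genotypes was 0.42 (SE 0.14, limma adjusted p = 0.0482). This call sat at the threshold and ended with centred arrays (adjusted p = 0.0561), with trend and robust settings (0.0528), and without any array but wild-type sham A, TLR4-/- I/R B or TLR4-/- sham D (0.0666 to 0.137). The changes of Fasn were 0.26 in wild type, with every I/R array above every sham array (limma adjusted p = 0.188), and -0.01 in TLR4-/-. Those of Scd1, whose group means all lay within background, were -0.23 and 0.47, and the latter was 0.25 without TLR4-/- I/R array D.

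Stard4 encodes a soluble carrier that moves cholesterol between membranes and is an SREBP target. In wild type the values were 5.29, 5.14, 5.07 and 4.97 after sham and 5.58, 5.52, 5.37 and 5.59 after I/R. In TLR4-/- they were 5.27, 5.35 and 5.37 after sham and 5.84, 5.73 and 5.50 after I/R. In each genotype all I/R arrays were above all sham arrays. The rise was 0.40 in wild type (SE 0.11, 1.32-fold, limma adjusted p = 0.0225), and the change was 0.36 in TLR4-/- (SE 0.12, limma adjusted p = 0.0857). The wild-type call ended without I/R array A or D or sham array C or D (adjusted p between 0.0537 and 0.0721).

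The SREBP regulators themselves were not called in any comparison. Srebf1, which encodes the SREBP of fatty acid genes and is also an LXR target, had changes of -0.12 in wild type and -0.15 in TLR4-/-. Those of Srebf2 were -0.02 and -0.27 (SE 0.11), and its TLR4-/- I/R arrays all lay below the sham arrays (limma adjusted p = 0.162). The share of all genes whose arrays separated in this way was not counted. Scap, the escort, had changes of -0.27 (SE 0.12) and -0.17 (SE 0.13). Insig1, the retention protein that is itself an SREBP target, had changes of 0.20 (SE 0.17) and 0.32 (SE 0.19), and Insig2 of 0.05 and 0.01. The TLR4-/- change of Insig1 was 0.14 without sham array B and 0.59 without sham array D.

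On the LXR side Mylip was the member with the lowest adjusted p in both genotypes. In wild type the values were 9.78, 9.78, 9.98 and 9.83 after sham and 9.30, 9.34, 9.39 and 9.35 after I/R. In TLR4-/- they were 9.91, 9.71 and 9.97 after sham and 9.27, 9.44 and 9.23 after I/R. The groups did not overlap in either genotype, and the I/R arrays lay close together. Mylip fell by 0.50 in wild type (SE 0.10, limma adjusted p = 0.00266) and by 0.55 in TLR4-/- (SE 0.11, limma adjusted p = 0.00485). Every alternative processing and every left-out array tried kept both calls.

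The efflux pumps did not follow it. Abca1, which loads cholesterol onto apolipoproteins, had wild-type values of 9.86, 9.92, 10.36 and 9.71 after sham and 10.07, 10.02, 10.15 and 9.81 after I/R. In TLR4-/- it had 9.97, 9.83 and 10.08 after sham and 9.94, 9.90 and 9.87 after I/R. Sham and I/R overlapped in both genotypes, and the changes were 0.05 (SE 0.13, limma adjusted p = 0.865) and -0.06 (SE 0.15, limma adjusted p = 0.894). Abcg1, the pump that passes sterol to lipoprotein particles, had changes of 0.11 (SE 0.14) in wild type and 0.21 (SE 0.17) in TLR4-/-. Nr1h3, the gene of LXR-alpha, had changes of -0.05 and 0.02, at values little above background.

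Lpcat3, an LXR target that places polyunsaturated chains into phospholipids, had wild-type values of 9.85, 9.77, 9.79 and 9.88 after sham and 9.49, 9.70, 9.49 and 9.47 after I/R. In TLR4-/- it had 9.73, 9.89 and 9.95 after sham and 9.30, 9.69 and 9.82 after I/R. The wild-type I/R arrays were all below the sham arrays, while the TLR4-/- groups overlapped. The change was -0.29 in wild type and -0.25 in TLR4-/-, neither of which passed. Without TLR4-/- I/R array B the change in TLR4-/- was -0.10. The mean over both genotypes fell by 0.27 (SE 0.09, limma adjusted p = 0.0419). That call ended without any array but wild-type I/R B, TLR4-/- I/R D or TLR4-/- sham A (adjusted p between 0.0516 and 0.108), and with the array letter as a block (0.0587).

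The second comparison asked what I/R changed in mice without TLR4. Its changes were differences between means of TLR4-/- arrays, which did not enter the wild-type changes. The SEs and p-values of the wild-type and TLR4-/- comparisons shared an estimate of spread from all arrays. The tests in the 2 genotypes were therefore not fully independent. Of the 30 genes 1 was called, Mylip, and it fell (3.33% lower and 0% higher). Over all genes 8.17% were called in this comparison, 5.04% higher and 3.13% lower. For the synthesis genes limma called 0 of 21, with a median change of 0.32 beside -0.03 over all genes, and 16 changes lay above 0. By part the medians were 0.32 in the mevalonate arm, 0.20 in the sterol arm and 0.47 in the fatty acid enzymes. The synthesis median was 0.21 without I/R array B. For the LXR side the median was -0.06. The count of 1 rose to 3 without TLR4-/- sham array D, and to 2 without I/R array B, C or D. The genes gained were Cyp51 and Insig1, then Scd2, Fdps and Stard4.

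Averaged over both genotypes, with 7 I/R and 7 sham arrays, 7 of the 30 genes were called. These were Sqle (0.50, SE 0.11), Cyp51 (0.46, SE 0.10), Stard4 (0.38, SE 0.08), Fdps and Scd2, which rose, and Mylip and Lpcat3, which fell. Of the 30 genes 23.3% were thus called, 16.7% higher and 6.67% lower. Over all genes 18.1% were called, 9.61% higher and 8.52% lower. Of the 21 synthesis genes 5 rose and 0 fell, with 19 changes above 0 and a median of 0.28. By part the medians were 0.32 in the mevalonate arm, 0.10 in the sterol arm and 0.12 in the fatty acid enzymes. Of the 5 LXR genes 0 rose and 2 fell, with a median of -0.02. Without Fasn, Scd1 and Scd2, which LXR also switches on, 4 of 18 synthesis genes rose and the median was 0.28. With these genes and Srebf1 counted on the LXR side instead, 1 of 9 rose, 2 fell and the median was 0.00.

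The array means of the arms gave the same comparison without a call on single genes. The mean of the 21 synthesis genes in wild type was 6.17 ± 0.17 (SD, n = 4) with sham surgery and 6.35 ± 0.04 (SD, n = 4) with I/R. In TLR4-/- it was 6.04 ± 0.13 (SD, n = 3) and 6.32 ± 0.07 (SD, n = 3). The wild-type sham arrays were spread from 5.95 (array C) to 6.36 (array A) and overlapped the I/R arrays (6.31 to 6.38), while the TLR4-/- sham arrays (5.95 to 6.19) lay below the I/R arrays (6.24 to 6.38). The mean of the 5 LXR genes was 8.66 ± 0.05 and 8.53 ± 0.07 in wild type and 8.68 ± 0.13 and 8.55 ± 0.15 in TLR4-/-, with overlap in both genotypes. Without wild-type sham array C and TLR4-/- I/R array D, 5 members were called in wild type, 3 in TLR4-/- and 6 averaged over both.

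**Figure D3:**
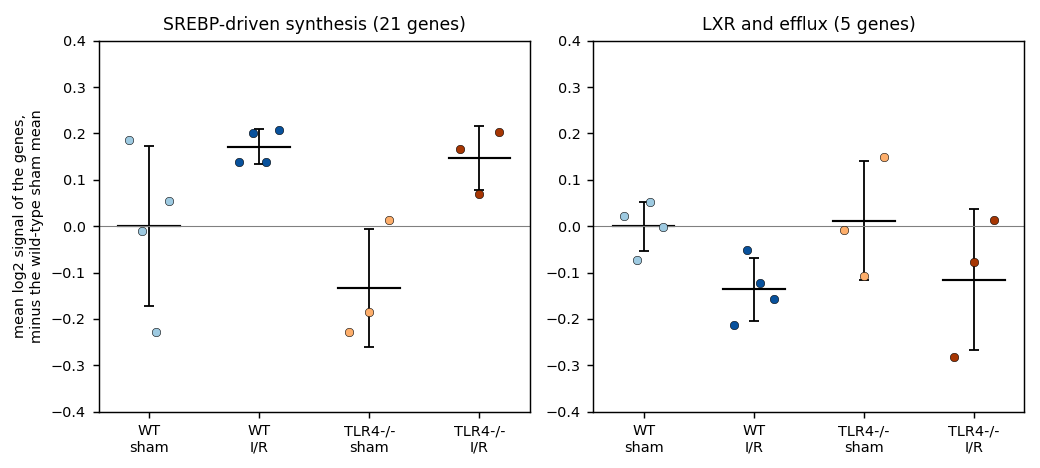
Mean log2 signal of the 21 synthesis genes (left) and the 5 LXR and efflux genes (right) on each array, minus the wild-type sham mean (y axis), by group. Points are arrays, lines are group means and bars the SD. The wild-type sham arrays are widely spread for synthesis and reach the I/R arrays.

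The remaining comparisons asked whether the genes depended on TLR4. Limma called 0 of the 30 genes for the difference between the genotypes' I/R changes (0% of all genes were called). An unadjusted limma p under 0.05 was found for 4 of the 30 members, a larger share than the 3.82% of all genes. These were Hsd17b7 (0.00634), Pmvk (0.00939), Scd1 (0.0232) and Lss (0.0460). After sham surgery limma called 0 members (0.00502% of all genes), with 1 of 30 at an unadjusted p under 0.05, beside 5.24% of all genes. After I/R it called 0 members (0.0201% of all genes). There 5 of the 30 had an unadjusted p under 0.05, a larger share than the 8.47% of all genes. The genotype change farthest from 0 after sham was that of Hsd17b7, -0.65 (SE 0.25, limma adjusted p = 0.920). After I/R the widest changes were those of Scd1, higher in TLR4-/- by 0.73 (SE 0.20, limma adjusted p = 0.444), and Pmvk, -0.48 (SE 0.15, limma adjusted p = 0.477). Low signal limits both results for Scd1, whose group means, 3.54 to 4.27, all lay within background. At an adjusted p under 0.05, dependence on TLR4 was therefore not detectable for any of these genes with this number of arrays.

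Several lipid genes outside the list had changes larger than any member. Ch25h, which makes an oxysterol, was at least 13.2-fold higher after I/R in wild type and at least 10.9-fold higher in TLR4-/-. Its sham means of 3.62 and 3.70 lay within background, so these bounds set sham arrays at 4.67, and the measured changes were 4.78 (SE 0.23) and 4.42 (SE 0.27). Lpl, the lipoprotein lipase, rose 7.88-fold in wild type and 5.41-fold in TLR4-/-. The lipid droplet coat gene Plin2 rose 3.79-fold and 3.82-fold, the cholesteryl ester hydrolase gene Nceh1 2.84-fold and 2.66-fold, and the lipoprotein receptor gene Scarb1 1.97-fold and 2.40-fold. Apoc1, also within background after sham, was at least 3.38-fold higher in both genotypes, with measured changes of 2.23 and 2.14. Apoe, the chief lipid carrier of the brain, rose by 0.56 and 0.62. Cyp27a1, which hydroxylates the sterol side chain, fell by 0.56 and 0.62. The changes of Apoe and Cyp27a1 were smaller in size than that of the member Hsd17b7 in TLR4-/- (0.85).

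By list, 3 of 9 other LXR targets and partners rose in both genotypes, Apoe, Apoc1 and Lpl, and Rxra, the partner receptor of LXR, fell by 0.47 in wild type. The median changes of that list were 0.04 and -0.10. It includes the receptor gene Nr1h4, whose group means, 3.45 to 3.69, lay within background. Among all genes 6.15% were called higher and 3.63% lower in wild type, and 5.04% and 3.13% in TLR4-/-. Of 13 other sterol handling genes 4 rose and 1 fell in each genotype, with medians of 0.03 and 0.09. Of 11 other synthesis genes 1 rose in both, Acaca, which encodes acetyl-CoA carboxylase (0.77, SE 0.15, and 0.59, SE 0.17), and Mlxipl fell by 0.44 in wild type, with medians of 0.01 and 0.03. Averaged over both genotypes Npc1, the lysosomal cholesterol exporter gene, also fell, by 0.29 (SE 0.07, limma adjusted p = 0.0118).

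Some of these calls lay close to the threshold. The change of Apoe stayed between 0.46 and 0.53 in wild type where C of the I/R arrays or A, B or C of the sham arrays was left out, while its adjusted p became 0.0527 to 0.0850. In TLR4-/- it stayed between 0.51 and 0.65 without any array but sham B (0.0665 to 0.161), and it was 0.55 with the array letter as a block (0.0855). The call of Acaca in TLR4-/- ended without I/R array C or D or sham array A or B (changes of 0.45 to 0.60, adjusted p 0.109 to 0.179) and with the mean of its rows (0.50, 0.173). It also ended with the block (0.52, 0.0521), with trend and robust settings (0.0522) and with only the compared groups (0.0585). That of Rxra ended without I/R array B, C or D or sham array A or B (changes of -0.37 to -0.48, adjusted p 0.0823 to 0.128). It also ended with centred arrays (0.0581), only the compared groups (0.0771), trend and robust settings (0.0560) and the block (0.0551). That of Mlxipl ended without I/R array D (-0.36, 0.0533).

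**Figure D4:**
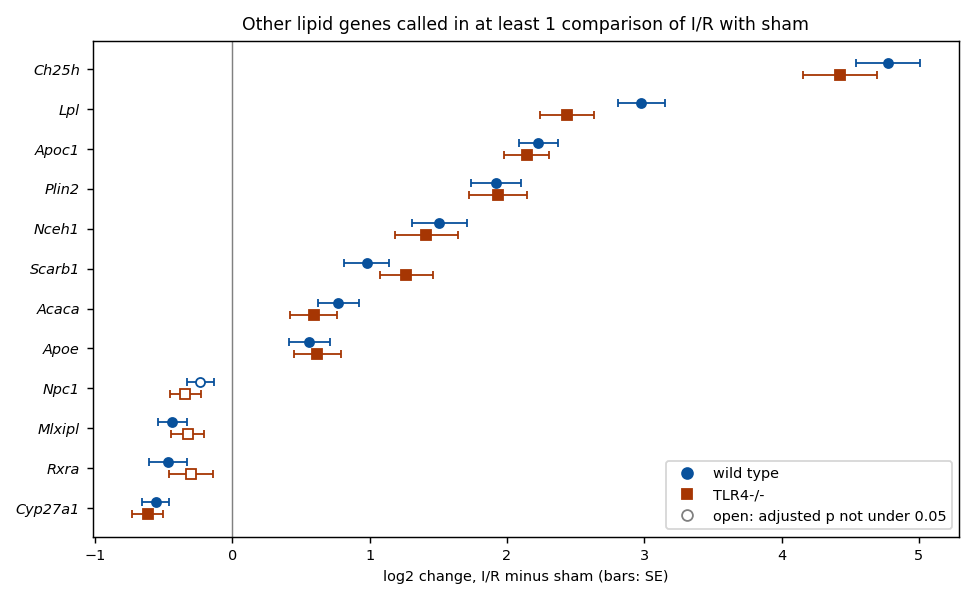
The log2 change from sham to I/R (x axis) of the 12 other lipid genes called in at least 1 comparison of I/R with sham, in wild type (circles) and TLR4-/- (squares), with bars for the SE and filled symbols for called genes. Lpl, Plin2, Nceh1 and Scarb1 lie at changes from 0.98 to 2.98, above the highest change of a member, 0.85 for Hsd17b7 in TLR4-/-. The points of Ch25h and Apoc1 are measured changes from sham levels within background, with lower bounds of 3.45 and 1.76.

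Markers of other cells and states were measured on the same arrays. All 6 markers of dividing cells rose in both genotypes, with median changes of 3.72 and 3.59. Of 7 measured monocyte markers 5 rose in wild type (median 1.27) and 4 in TLR4-/- (median 1.48), and their array means were 5.08 to 5.39 after sham and 6.53 to 7.31 after I/R in wild type, and 4.86 to 5.10 and 6.54 to 6.73 in TLR4-/-. The array means of 7 astrocyte markers were 5.38 to 5.82 after sham and 4.94 to 5.56 after I/R in wild type, and 5.29 to 5.56 and 5.18 to 5.73 in TLR4-/-, with Slc1a3 lower in both. Those of 7 oligodendrocyte markers were 5.21 to 5.60 and 5.27 to 5.37 in wild type, and 5.35 to 5.51 and 5.29 to 5.61 in TLR4-/-, with 0 called. For 6 neuron markers 0 were called in either genotype. For 5 measured endothelial markers 1 was higher and 1 lower in wild type (Pecam1 and Flt1), and Pecam1 was lower in TLR4-/-. Of the 9 microglial markers 6 fell in wild type (median -0.39) and 4 in TLR4-/- (median -0.34). The part of these cells and of cell division in the changes of the sterol genes was not tested.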

How the data were processed

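Expression was measured in 14 samples, 1 array each. RMA from the oligo package, without versions, is named in the submitters' processing notes. It corrects background, brings arrays to a common distribution and summarises probes. The range of the deposited values is that of log2 signals. Of 35556 array rows, 21789 carried 1 gene symbol in the platform annotation, and the row with the highest mean stood for each of 19938 genes. Symbols were updated through the RefSeq gene table of GRCm38.p6. A linear model with a mean for each of the 4 groups was fitted to all arrays with limma 3.58.1 (lmFit and eBayes, R 4.3.3), with Benjamini-Hochberg adjustment over all genes and calls at an adjusted p under 0.05. The model was tested on simulated data. Precision is limited by how many arrays each group has. All measured members are named, and values on every array are given for called members and for a few others. Hsd17b7 and Abca1 were given in full after their values were seen. The members and gene lists were chosen with earlier results of these data known. Alternatives were median centring, no dim genes, only the compared groups, trend and robust settings, array weights, the mean of a gene's rows, the array letter as a block, and each array left out.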

Additional observations from a re-analysis of the deposited data

Results flagged for a closer look

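In 60 groups of 4 wild-type arrays (30 genes, 2 groups), 4 had an array far from the others by Dixon's test, and chance alone sets apart about 1 in 20 groups. Wild-type I/R array B was high for Abcg1, at 9.28 against 8.97 to 9.02 on the other arrays, and for Lpcat3, at 9.70 against 9.47 to 9.49. Wild-type I/R array C was high for Mvd, at 6.24 against 5.98 to 6.01. Wild-type sham array C, which stood apart from its group over all genes, was low for Scap, at 8.23 against 8.56 to 8.60. The causes were not tested.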

How the results depend on the processing

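The count of called genes in wild type, 6, was the same under all 7 alternatives of processing and ran from 3 (without I/R array D) to 7 as single arrays were left out. In TLR4-/- the count of 1 became 3 without dim genes, 3 with only the compared groups and 3 with array weights, and ran from 1 to 3 as single arrays were left out. With wild-type sham array C and TLR4-/- I/R array D both left out, an alternative chosen after seeing the data, it was 3. Among the genes gained in TLR4-/- were Fdps without dim genes (adjusted p = 0.0437) and with only the compared groups (0.0478), and Scd2 with array weights (0.0368). The other genes gained there are not named, because single genes were followed only where the main model called them. Averaged over genotypes the count of 7 ran from 5 to 8. The counts of 0 for the comparisons of genotypes did not change. The median change of the synthesis genes stayed above 0 under every alternative, between 0.17 and 0.29 in wild type and between 0.21 and 0.39 in TLR4-/-. That of the LXR genes ran from -0.13 to 0.03 and from -0.16 to 0.00, so its sign is not settled. The array letters were shared between groups. Of 18 pairs with a shared letter, 3 had deviations correlated above 0.1 (r from -0.10 to 0.28). Among arrays of other groups, 7 of 14 arrays correlated best with their own letter. No chance level was computed for these counts, and whether the letters mark a pairing was not tested. With the replicate block the counts were 6 in wild type, 2 in TLR4-/- (Fdps gained, adjusted p = 0.00661) and 7 averaged over genotypes. Low signal limits Scd1 and Idi1.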
